A study of Homo sapiens with 2 samples.

Results

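The genes described are 10 angiogenic ligands and receptors, chosen by name among the 20263 genes of the deposited tables: the VEGF family ligands VEGFA, VEGFB, VEGFC and PGF, the platelet-derived ligands PDGFA and PDGFB, the secreted factor ANGPTL4, the co-receptors NRP1 and NRP2, and the receptor FLT1. The names were chosen with earlier results of these data known, and all 10 matched 1 row each. RNA was sequenced from 2 cultures of Cal-27, an established oral squamous carcinoma line of tongue origin, grown in DMEM with fetal bovine serum. One culture had been stably transduced with a scrambled shRNA (sh-scramble) and the other with an shRNA against the kinase HIPK2 (sh-HIPK2, construct GV-248-HIPK2-sh). Whether each culture is a clone or a pool is a point not given in the sources used here. With 1 library per group there is no spread between cultures, so no test was run and no p-value was computed, and the values describe 2 libraries rather than 2 conditions.

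Tumour cells release VEGF family ligands that act mainly on endothelial cells of nearby vessels. VEGFA signals through the receptors FLT1 and KDR and drives blood vessel growth, PGF and VEGFB bind FLT1, and VEGFC acts through FLT4 on lymphatic vessels. PDGFA and PDGFB form dimers that act through PDGFRA and PDGFRB on fibroblasts and on the pericytes around vessels. Neuropilins have no kinase of their own: they hold VEGF ligands for the receptor kinases and hold class 3 semaphorins for plexins. ANGPTL4 inhibits lipoprotein lipase and is known as a target of hypoxia and of the PPAR receptors.

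The 3 promoters below are those of the VEGF family ligands among the 10 genes that had a RefSeq promoter entry. Their CPM ratios (labelled HIPK2 shRNA over control) were 0.400 for VEGFC, 0.499 for PGF and 0.916 for VEGFB. VEGFA, with the lowest ratio of the family, 0.232, had no entry. The sequences are from RefSeq (GRCh38.p14), 5′ to 3′ on the gene's strand, and end before the gene's start in the authors' table. Capitals mark GC boxes (GGGCGG on either strand), the letters bound by SP1-type factors.
VEGFB, chr11:64234334-64234537, plus strand: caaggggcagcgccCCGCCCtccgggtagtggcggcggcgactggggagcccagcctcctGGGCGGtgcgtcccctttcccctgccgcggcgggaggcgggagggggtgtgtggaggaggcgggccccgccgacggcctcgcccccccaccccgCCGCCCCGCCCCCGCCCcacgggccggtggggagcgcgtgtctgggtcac
VEGFC, chr4:176792923-176793172, minus strand: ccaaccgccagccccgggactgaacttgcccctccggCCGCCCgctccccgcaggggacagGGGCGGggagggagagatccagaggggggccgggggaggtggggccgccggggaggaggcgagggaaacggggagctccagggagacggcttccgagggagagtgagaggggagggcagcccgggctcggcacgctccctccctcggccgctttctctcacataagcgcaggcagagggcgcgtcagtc
PGF, chr14:74955785-74956014, minus strand: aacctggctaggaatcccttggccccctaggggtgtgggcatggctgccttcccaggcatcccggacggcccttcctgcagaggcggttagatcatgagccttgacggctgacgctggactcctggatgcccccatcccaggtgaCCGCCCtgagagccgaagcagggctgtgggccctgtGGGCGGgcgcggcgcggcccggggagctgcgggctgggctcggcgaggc
The VEGFB stretch of 204 bases held 5 GC boxes, some of them overlapping, at 81.9% G and C. The VEGFC stretch of 250 bases and the PGF stretch of 230 bases held 2 each, at 74% and 70.9%. A further PGF start was not printed, and its 250 bases held 3 GC boxes at 80%. The full 250 bases before the VEGFB start held 6. The RefSeq promoter table matched 7 of the 10 genes, with 11 starts; VEGFA, PDGFB and NRP1 did not match. In windows of 250 bases before the start, all 7 genes and all 11 starts held a GC box, against 42.6% of the 35116 windows in the table. The hypoxia response core (ACGTG, either strand) was found before ANGPTL4 alone of the 7, against 18.5% of all windows. An AP-1 site (TGANTCA) and a TEAD site (GGAATG, either strand) were found before none of them, against 6.57% and 11.9% of all windows, and a TATA box (TATAAA, either strand) before ANGPTL4 and FLT1, against 10.7%. These are matches of letters in short windows, and binding was not measured.

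The libraries held 28064923 counts (control) and 26450251 counts (labelled HIPK2 shRNA). The targeted gene did not settle the label: HIPK2 had 110 and 218 counts, a ratio of 2.01, but a deposited TPM of 1.63 and 0.873. The transcript length implied by its count and FPKM was 3443 bp in the control and 13820 bp in the other, so its TPM values rest on different lengths. The second sample is named throughout as the library labelled HIPK2 shRNA. All 12 squamous carcinoma markers were expressed. Their summed level was 4742 and 4099 CPM (counts scaled to library size), most of it KRT5 (2766 and 2554 CPM), and 8 of the 12 were lower with the HIPK2 label. Among these 8, 2 were past 2-fold lower, a limit on size given below: the basal keratin KRT14, with 318 and 44 counts (11.6 and 1.63 CPM, a ratio of 0.140), and the epithelial cadherin CDH1, with a ratio of 0.474 (0.451 to 0.498). Over all expressed genes, 50.0% were lower and 2.87% past 2-fold lower. Of 12 endothelial markers, PECAM1, KDR, TEK, TIE1, EMCN and PLVAP had 0 counts in both libraries. The list summed to 56.5 and 28.7 CPM, nearly all from CDH5, the gene of VE-cadherin, at 55.2 and 27.3 CPM. The 10 fibroblast and pericyte markers summed to 22.7 and 27.9 CPM with DCN and PDGFRA at 0. Of these, 5 were expressed, with COL1A1 (9.59 and 12.7 CPM) the highest. The 8 leukocyte markers summed to 38.2 and 34.7 CPM with PTPRC, CD3E and MS4A1 at 0. Of these, 4 were expressed, with CD68 (23.1 and 20.6 CPM) the highest. The part of these marker differences in the results was not tested.

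In the library labelled HIPK2 shRNA, VEGFA and VEGFC stood more than 2-fold below the control and PGF about 2-fold below it, with a ratio of 0.499 (0.446 to 0.557). PDGFA, PDGFB and the neuropilins were lower by less, ANGPTL4 and FLT1 were at or near the detection limit, and VEGFB, the most abundant of the 10, differed little. Levels are given in CPM after TMM scaling, a depth correction that assumes most genes are unchanged. Brackets hold 95% intervals that cover counting error only. In bulk RNA, fewer expressing cells and less RNA per cell cannot be told apart.

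**Figure D1:**
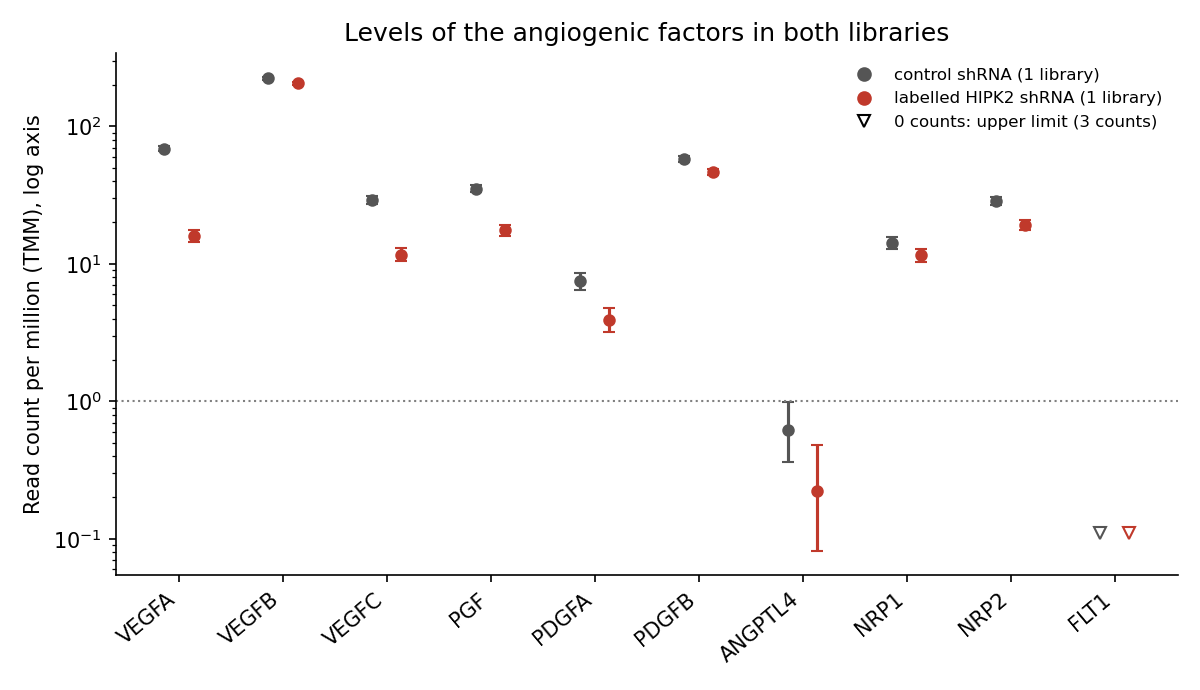
Level of each of the 10 genes in CPM (log axis) in the control library (grey) and the library labelled HIPK2 shRNA (red), 1 library each; bars are 95% Poisson intervals, triangles the limit that 0 counts allow, and the dotted line 1 CPM. The red point lies below the grey one for the 9 detected genes, and FLT1 had 0 counts in both.

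VEGFA (ENSG00000112715, chromosome 6, 43770213 to 43786487, plus strand, GRCh38) gave 1887 counts with the control shRNA and 431 with the HIPK2 label. This amounts to 68.8 CPM (65.7 to 72.0) against 15.9 CPM (14.5 to 17.5), and the ratio was 0.232 (0.208 to 0.257). The counting intervals of the levels do not overlap. In the authors' deposited TPM, which is scaled to transcript length, VEGFA stood at 31.3 and 9.93, a ratio of 0.317. By log2 ratio of (CPM + 1), -2.04, VEGFA was the 45th lowest of the 11813 genes that reached 1 CPM in a library.

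VEGFC (ENSG00000150630, chromosome 4, 176683538 to 176792727, minus strand), the lymphatic ligand, had 800 and 316 counts. That is 29.2 CPM (27.2 to 31.3) against 11.7 CPM (10.4 to 13.0), a ratio of 0.400 (0.350 to 0.457). Its TPM of 19.8 and 8.48 gave nearly the same ratio, 0.429. PGF, placental growth factor (ENSG00000119630, chromosome 14, 74941834 to 74955784, minus strand), had 968 and 476 counts. It stood at 35.3 CPM (33.1 to 37.6) against 17.6 CPM (16.0 to 19.2), a ratio of 0.499, and 0.512 in TPM. The interval of the VEGFC ratio lies above that of VEGFA and overlaps that of PGF. The printed promoters of VEGFC and PGF belong to these genes.

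VEGFB (ENSG00000173511, chromosome 11, 64234538 to 64238793, plus strand), a FLT1 ligand tied to metabolism more than to vessel growth, had 6143 and 5552 counts. Its 223.9 CPM (218.4 to 229.6) against 205.2 CPM (199.8 to 210.6) made a ratio of 0.916 (0.883 to 0.950). This is the highest ratio of the 9 detected genes. In TPM the values were 247.8 and 241.7, a ratio of 0.975. With each count taken as independent, the difference of VEGFB is above counting error at this depth. Its log2 ratio of -0.13 was, however, -0.06 with scaling by total counts.

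VEGFB differed little while the other ligands were lower, and the makeup of the VEGF family differed between the libraries. On the per-length TPM scale VEGFB made up 75.5% of the family in the control and 87.9% in the library labelled HIPK2 shRNA. VEGFA made up 9.54% and 3.61%, PGF 8.90% and 5.43%, and VEGFC 6.03% and 3.08%. VEGFD had 0 counts in both libraries. The summed TPM of VEGFA, VEGFC and PGF was 80.3 and 33.4, while that of the whole family was 328 and 275. VEGFB stood at 7.92 times the TPM of VEGFA with the control shRNA and at 24.3 times with the HIPK2 label. As a share of family counts, which is not per length, VEGFA took 19.3% (exact binomial interval 18.5 to 20.1) and 6.36% (5.79 to 6.97).

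**Figure D2:**
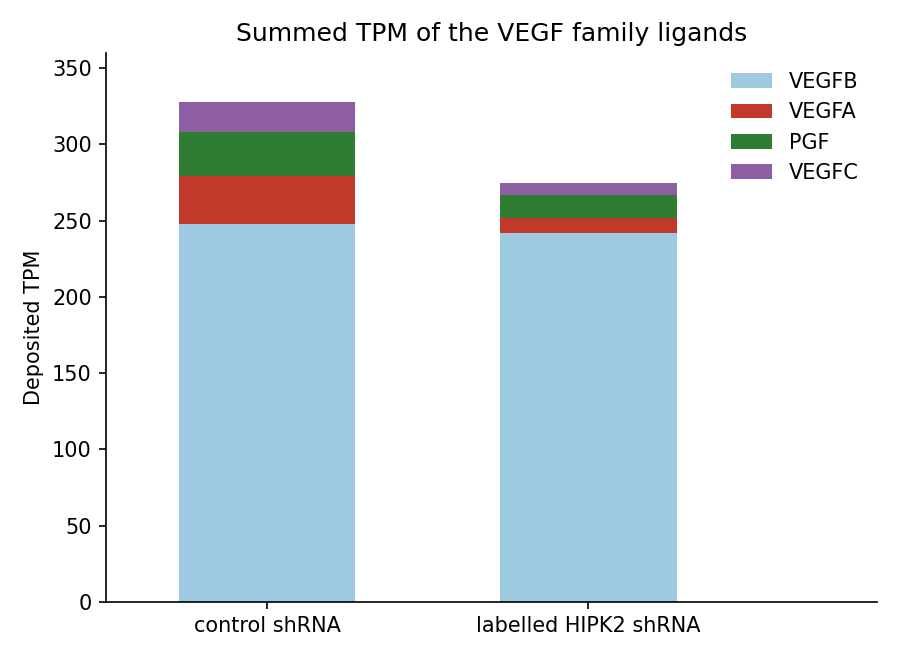
Deposited TPM of the VEGF family ligands stacked for each library (linear axis from 0, 1 library per bar; VEGFD had 0 counts). The VEGFB block is nearly as tall in both bars, 247.8 and 241.7 TPM, and the VEGFA block is 31.3 TPM against 9.93 TPM.

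The PDGF ligands were both lower, PDGFA by more than PDGFB. PDGFA (ENSG00000197461, chromosome 7, 497258 to 520296, minus strand) had 204 and 106 counts. Its 7.44 CPM (6.45 to 8.53) stood against 3.92 CPM (3.21 to 4.74), a ratio of 0.527 (0.413 to 0.669), and 0.613 in TPM. PDGFB (ENSG00000100311, chromosome 22, 39223359 to 39244751, minus strand) had 1584 and 1263 counts. It reached 57.7 CPM (54.9 to 60.7) against 46.7 CPM (44.1 to 49.3), a ratio of 0.808 (0.750 to 0.871), and 0.835 in TPM. The intervals of these ratios do not overlap. PDGFB was the more abundant ligand per length, 4.94 times PDGFA in the control and 6.72 times in the library labelled HIPK2 shRNA.

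ANGPTL4 (ENSG00000167772, chromosome 19, 8363289 to 8374373, plus strand) was close to the detection limit. It had 17 and 6 counts, or 0.620 CPM (0.361 to 0.992) and 0.222 CPM (0.0814 to 0.483). The ratio of 0.358 has an interval from 0.116 to 0.951, so its size is poorly fixed at this depth. The gene did not reach 1 CPM in either library and is left out of the counts of expressed genes. Its exons overlap those of RAB11B-AS1 on the opposite strand.

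Among the receptors, both neuropilins were expressed and FLT1 was not detected. NRP2 (ENSG00000118257, chromosome 2, 205682500 to 205798133, plus strand), the partner of VEGFC and its receptor, had 787 and 519 counts. It reached 28.7 CPM (26.7 to 30.8) against 19.2 CPM (17.6 to 20.9), a ratio of 0.669 (0.597 to 0.748), and 0.714 in TPM. NRP1 (ENSG00000099250, chromosome 10, 33177492 to 33336262, minus strand), the partner of VEGFA and of semaphorin 3A, had 391 and 313 counts. Its levels were 14.3 CPM (12.9 to 15.7) against 11.6 CPM (10.3 to 12.9), where the intervals touch, with a ratio of 0.812 (0.697 to 0.944). In TPM the NRP1 ratio was lower, 0.654, and lies outside that interval. FLT1 (ENSG00000102755, chromosome 13, 28300344 to 28495145, minus strand) had 0 counts in both libraries, an upper limit of 0.109 CPM (control) and 0.111 CPM (labelled HIPK2 shRNA).

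Per length, the order of the genes in the control was VEGFB (247.8 TPM), VEGFA (31.3), PGF (29.2), PDGFB (24.1), VEGFC (19.8), NRP2 (8.59), NRP1 (8.25), PDGFA (4.88) and ANGPTL4 (0.440), with FLT1 at 0. In the library labelled HIPK2 shRNA, PDGFB (20.1) and PGF (14.9) stood above VEGFA (9.93), and the places from VEGFC (8.48) down were as in the control. TPM has no counting interval here, so neighbours as close as VEGFA and PGF, or NRP2 and NRP1, in the control cannot be ordered. VEGFB lay above 95.1% of expressed genes in both libraries. VEGFA lay above 73.3% of them in the control and above 52.8% in the library labelled HIPK2 shRNA.

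**Figure D3:**
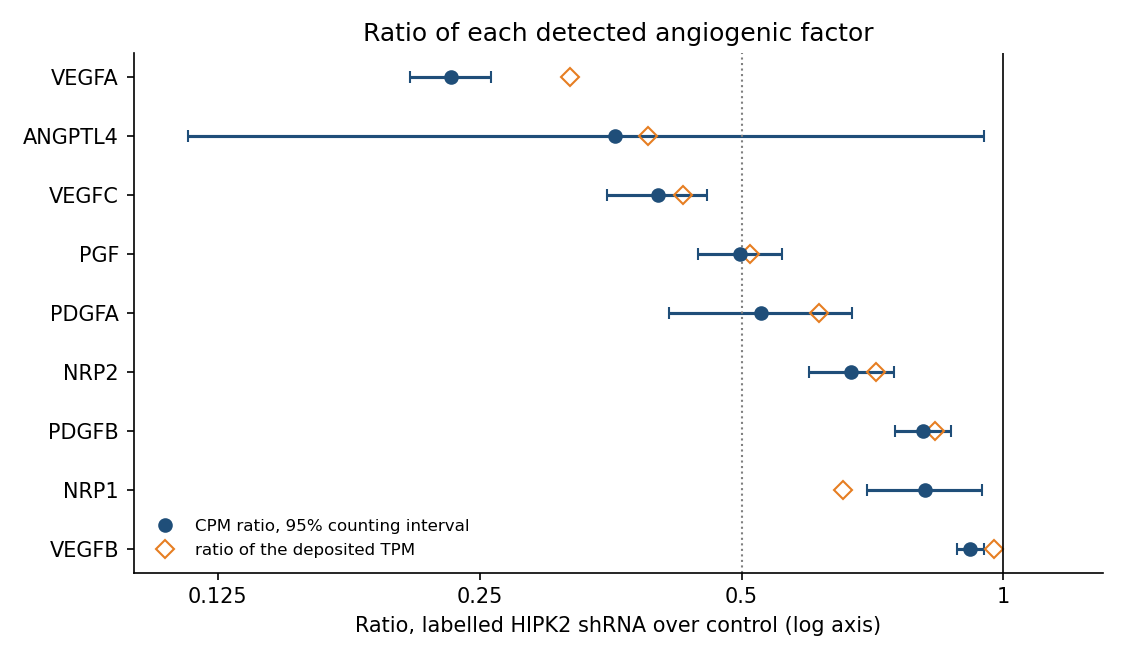
Ratio of the library labelled HIPK2 shRNA over the control for the 9 detected genes (log axis): filled circles are CPM ratios with 95% counting intervals and open diamonds ratios of the deposited TPM. VEGFA is the lowest in both units (0.232 and 0.317) and VEGFB the closest to 1 (0.916 and 0.975); the diamonds of VEGFA, NRP1 and VEGFB lie outside the CPM intervals.

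Genes count as past 2-fold where the log2 ratio of (CPM + 1) is 1 or more, or -1 or less; this limit on size involves no test. Of the 8 genes that reached 1 CPM, each of them in both libraries, VEGFA and VEGFC (-1.25) were past 2-fold lower and 0 past 2-fold higher. Over all 11813 expressed genes, 2.87% were past 2-fold lower and 3.26% past 2-fold higher. PGF, at -0.96, lay just short of the limit. At a limit of 1.5-fold PGF and PDGFA (-0.78) passed too, 4 of the 8, against 9.96% of all expressed genes. All 8 had a ratio below 1, as had 50.0% of all expressed genes, and all 8 counting intervals lay below 1, as did 34.6% of those of all expressed genes. Their median log2 ratio was -0.67, beside 0.00 over all expressed genes. The 8 belong to a set chosen with earlier results of these data known, so these shares do not test the set. In TPM the same genes VEGFA (-1.56) and VEGFC (-1.13) were past 2-fold lower, against 2.21% of all genes. All 8 were again lower, against 42.2% of all genes, and the medians were -0.55 and 0.08.

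**Figure D4:**
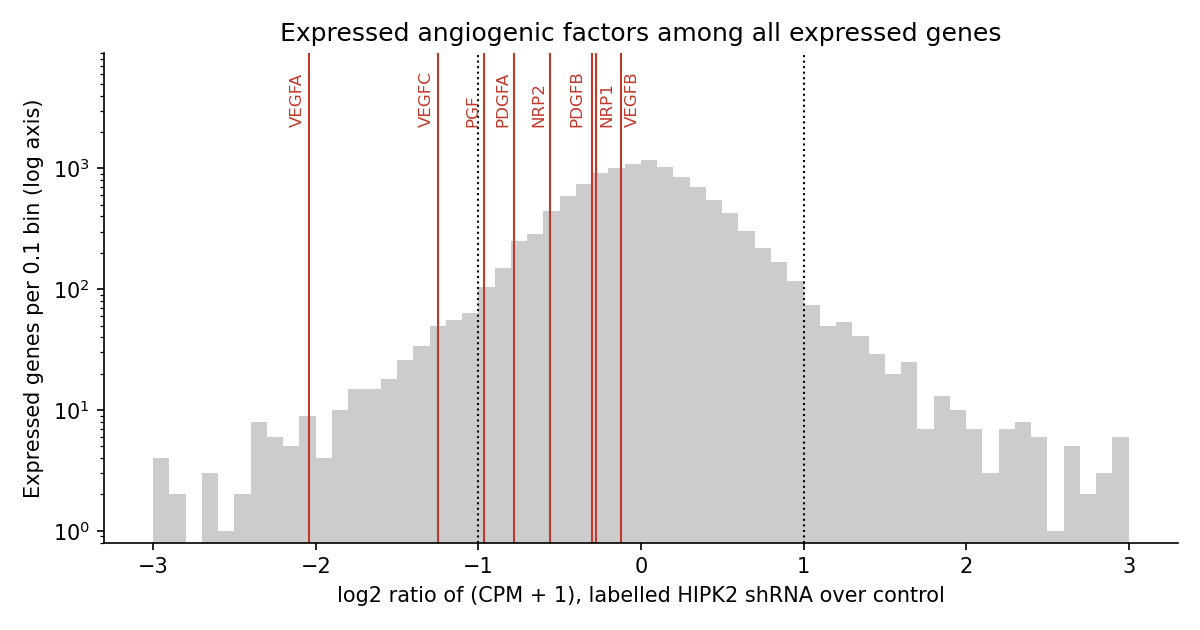
Log2 ratios of (CPM + 1) of the 11813 expressed genes in bins of 0.1 (grey, log count axis; 22 genes beyond 3 in either direction are outside the plot), with the 8 expressed genes of the set as red lines and the 2-fold limits dotted. All red lines lie left of 0, VEGFA at -2.04 and VEGFC at -1.25 beyond the limit and PGF at -0.96 just inside it.

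The ratio in TPM lay outside the CPM interval for VEGFA, NRP1 and VEGFB. The transcript length implied by the deposited values was read from count over FPKM and scaled on 431 genes with 1 annotated transcript, of which 98.6% came within 10% of their annotated length. VEGFA had an implied length of 3069 bp in the control and 2402 bp in the library labelled HIPK2 shRNA, where GENCODE 29 lists 26 coding transcripts of 336 to 3535 bp. NRP1 had 2414 and 3211 bp, among 14 coding transcripts of 372 to 5882 bp. For the other 6 expressed genes the length moved by less than 10%. It moved most in PDGFA, 2129 and 1960 bp, and least in VEGFC, 2059 and 2061 bp. VEGFB had 1262 and 1271 bp, and its CPM interval is narrow (0.883 to 0.950, beside 0.975 in TPM). The median log2 ratio over all expressed genes was 0.00 in CPM and 0.08 in TPM. A shift of over 10% was seen in 24.5% of all expressed genes, so 2 of 8 is near the background. Which transcripts of VEGFA and NRP1 were present cannot be read from gene-level tables. Exons of VEGFA, NRP1 and NRP2 overlap a gene on the opposite strand (AL136131.3, AL121748.2 and AC007362.1), and the strand setting of the counting is a point not given in the sources used here.

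The other genes of these families were mostly silent. Of 8 further VEGF and PDGF ligands and receptors, VEGFD, KDR, PDGFD and PDGFRA had 0 counts in both libraries and FLT4 had 0 and 1. The 3 expressed ones were all under 2-fold. PDGFC, another PDGF ligand, had 98 and 149 counts, a ratio of 1.54 (1.19 to 2.01), against the direction of PDGFA and PDGFB. The receptor PDGFRB had 44 and 73 counts, a ratio of 1.68 (1.14 to 2.50), and PDGFRL, a PDGF receptor-like gene, 94 and 65 counts, a ratio of 0.701 (0.503 to 0.972). Of 12 angiopoietin, angiopoietin-like and TIE receptor genes 0 reached 1 CPM, and 9 had 0 counts in both libraries.

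Other angiogenic growth factors were mixed. Of 14 expressed ones, 5 were higher and 9 lower, with 1 past 2-fold each way and a median log2 ratio of -0.24. Among all expressed genes 50.0% were lower, 2.87% past 2-fold lower and 3.26% past 2-fold higher. APLN, the peptide ligand apelin, went from 6.20 to 2.25 CPM, a ratio of 0.364 (0.267 to 0.490). In TPM its log2 ratio was -0.85, under 2-fold. ANG, the ribonuclease angiogenin, had 40 and 106 counts, a ratio of 2.69 (1.85 to 3.97), but shares exons with RNASE4, so reads can be counted for either gene. ECM1, a secreted matrix protein, had a ratio of 2.16 (1.66 to 2.84). Angiogenesis inhibitors had 7 of 12 higher, a median of 0.16 and 1 past 2-fold each way. TIMP2, a metalloproteinase inhibitor, went from 57.1 to 137.6 CPM, a ratio of 2.41 (2.27 to 2.56), with exons overlapping CEP295NL. ADAMTS1, a protease that binds VEGFA, went from 25.6 to 8.72 CPM, a ratio of 0.341 (0.293 to 0.396), and THBS1, thrombospondin, had a ratio of 0.570 (0.561 to 0.579).

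Partners of the neuropilins were mostly higher and mostly under 2-fold. Of 9 expressed plexins, class 3 semaphorins and GIPC1, 7 were higher and 2 lower, with a median of 0.23. Past 2-fold were 0 higher and 1 lower. Of all expressed genes, 50.0% were lower, 2.87% past 2-fold lower and 3.26% past 2-fold higher. PLXND1, a plexin of vessel guidance, went from 17.2 to 34.0 CPM, a ratio of 1.97 (1.76 to 2.21). SEMA3A, the NRP1 ligand, had 89 and 139 counts, a ratio of 1.58 (1.20 to 2.09). Its TPM ratio of 2.56 lay outside that interval. The implied length of SEMA3A was 8300 bp in the control and 5494 bp in the library labelled HIPK2 shRNA. SEMA3B, a semaphorin known as a tumour suppressor, went from 15.1 to 6.65 CPM, a ratio of 0.440 (0.367 to 0.525). Of 9 expressed proteases and cofactors that process these ligands 6 were lower, 0 passed 2-fold and the median was -0.13. CCBE1, the cofactor of VEGFC cleavage, had 137 and 71 counts, a ratio of 0.525 (0.389 to 0.705). PLAU, the urokinase gene, had a ratio of 0.723 (0.713 to 0.733), and PCSK5, a proprotein convertase, one of 0.728 (0.590 to 0.897).

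VEGFA is a textbook hypoxia gene, and other hypoxia targets differed less. The part of hypoxia in the VEGFA difference was not tested. Of 23 expressed hypoxia targets 9 were higher and 14 lower, where 50.0% of all expressed genes were lower. The median was -0.19, and 0 passed 2-fold in either direction, against 2.87% lower and 3.26% higher of all expressed genes. Counting intervals lay below 1 for 13 and above 1 for 6. Over the 11813 expressed genes, 34.6% lay below 1 and 3865 genes above. In TPM 12 were higher and 11 lower, where 42.2% of all expressed genes were lower. The collagen hydroxylase P4HA2 had a log2 ratio of -0.86, the glycolytic regulator PFKFB3 one of -0.79 and the mitochondrial kinase PDK1 one of 0.69. PFKFB3 and PDK1 changed sign in TPM, to 0.04 and -0.18. Of 12 expressed regulators of the HIF pathway 8 were higher, with a median of 0.16, 0 past 2-fold higher and 2 past 2-fold lower. CITED2, which competes with HIF for the coactivators EP300 and CREBBP, went from 37.2 to 10.3 CPM, a ratio of 0.278 (0.243 to 0.318). ARNT2, a HIF partner, had a ratio of 0.360 (0.283 to 0.457) and EP300 one of 1.61 (1.48 to 1.75).

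**Figure D5:**
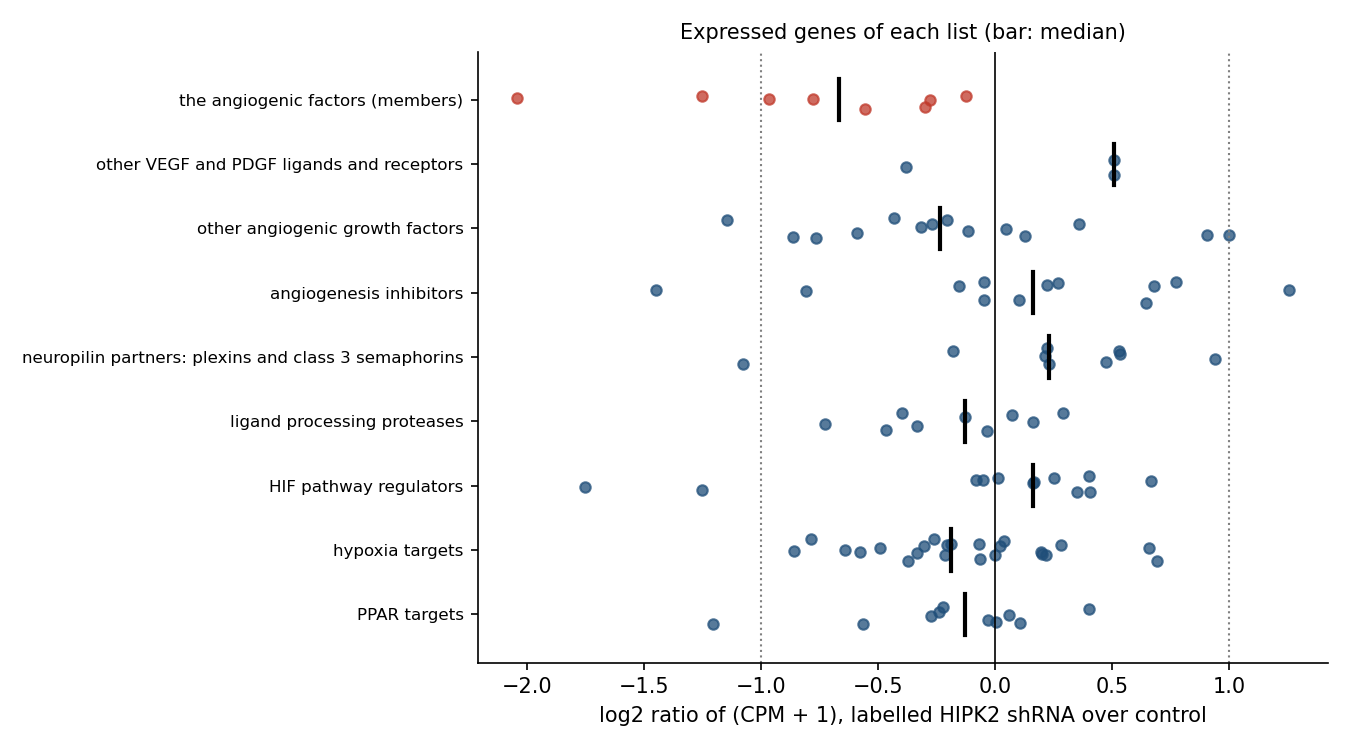
Log2 ratio of (CPM + 1) of each expressed gene by list, the angiogenic factors in red and the other lists in blue, with the list median as a black bar and the 2-fold limits dotted; vertical scatter within a list has no meaning. The median of the angiogenic factors is -0.67, and the hypoxia targets lie within the 2-fold limits.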

How the data were processed

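RNA was sequenced on an Illumina HiSeq as paired-end reads from 1 library per group, per the labels' protocols. Per the submitters' processing notes, FastQC was used, TopHat2 2.1.1 was the aligner and the build was GRCh38 (hg38); a counting tool was not given in the sources used here. The deposited counts are whole numbers of reads per gene, not normalized, per the file headers. The deposited TPM and FPKM were computed by the authors, per the file headers, and are scaled to transcript length.

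Counts were scaled to CPM with TMM factors (0.977 and 1.02) from edgeR 4.0.16 in R 4.3.3; no count test was run. Expressed means 1 CPM in at least 1 library. Log2 ratios use a pseudocount of 1. Ratio intervals are exact (Clopper-Pearson, conditional on both counts, scipy 1.17.1) and level intervals exact Poisson, at 95%. Both reflect counting error alone, since PCR copies cannot be recognised here, and both take each count as independent. The upper limit for 0 counts is 3 counts. On simulated counts for the same comparison (20263 genes), 92% of genes changed 2.5-fold and 100% changed 3-fold or 4-fold were called past 2-fold, and 0% of unchanged genes; no spread between cultures was simulated. Transcript lengths and overlaps are from GENCODE 29.

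The members and all gene lists were chosen with earlier results of these data known. Named genes are the 10 members, HIPK2, up to 3 expressed genes per list with the largest absolute log2 ratio, and family members with at most 3 counts in each library; some other list genes are named as markers, and 1 listed gene is not reported here. Likeness of pattern was not computed, since 2 libraries give 1 ratio per gene. Alternatives were other pseudocounts, scalings with edgeR or DESeq2 1.42.0, filters, the deposited TPM and a 1.5-fold rule.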

Additional observations from a re-analysis of the deposited data

How the results depend on the processing

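No paired analysis was possible because there is 1 library per group, which also means that none could be omitted. The 8 expressed genes of the set (7 with the filter at 10 CPM) were lower under every one of the 9 alternatives tried. VEGFA and VEGFC stayed past 2-fold in each setting that kept the 2-fold rule, PGF joined them with a pseudocount of 0.1 CPM, and with the 1.5-fold rule 4 genes passed, where 9.96% of all genes did. Of 54 log2 ratios of single members under other settings, 0 changed sign and 7 moved by more than counting error, among them VEGFA to -1.56 in TPM, or to -1.82 when 5 CPM was added. Adding more CPM to both levels brings a log2 ratio closer to 0 by definition. TPM divides by transcript length, and the implied length of VEGFA was 3069 bp in the control and 2402 bp in the other library. Why the length differed was not tested. Over all genes, 385 higher and 339 lower became 676 and 515 with a pseudocount of 0.1 CPM, 124 and 161 with 5 CPM, 159 and 217 with a filter at 10 CPM, and 1254 and 1176 at 1.5-fold. The log2 ratio of HIPK2, 0.85, reversed to -0.49 in TPM. The VEGFA share of its family, 9.54% and 3.61% in TPM, was 19.3% and 6.36% in counts, which are not per length. Of 162 counts of the other lists under other settings 24 moved by more than 1.5 times or to or from 0. Depth limits ANGPTL4 and FLT1: 1 count equals 0.0365 CPM (control) or 0.0370 CPM (labelled HIPK2 shRNA).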

Other observations

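Targets of the PPAR receptors, which are known to regulate ANGPTL4, were few and mixed. PDK4, PLIN2, CREB3L3, FABP4 and CD36 had 0 counts in both libraries. Of the 10 expressed, 4 were higher and 6 lower in the library labelled HIPK2 shRNA, with a median log2 ratio of -0.13. For comparison, 50.0% of all expressed genes were lower and 2.87% past 2-fold lower. CPT1A, which brings fatty acids into mitochondria, went from 84.7 to 36.2 CPM, a ratio of 0.427 (0.396 to 0.461), and was the single one past 2-fold; in TPM its log2 ratio was -0.97, just under 2-fold. FABP5, a fatty acid binding protein, had a ratio of 0.673 (0.631 to 0.718) and ACSL3, an acyl-CoA synthetase, one of 1.33 (1.21 to 1.47).

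CDH5, best known from endothelial cells, was expressed in both libraries although 6 other endothelial markers had 0 counts, and its ratio was 0.496 (0.453 to 0.542). Its implied transcript length was 3919 bp in the control and 3728 bp in the other library. VWF, the other endothelial marker to reach 1 CPM, had 25 and 31 counts, a ratio of 1.26 (0.718 to 2.22).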
